A study of Homo sapiens with 8 samples.

Results

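The genes described here are the machinery with which a cell detects and repairs damaged DNA: the ATM and CHEK1 signalling kinases and the enzymes of homologous recombination, the Fanconi anaemia pathway, mismatch repair, base and nucleotide excision repair and end joining. They were chosen by name, as the probes whose platform annotation carries 1 of 52 listed gene symbols. Of the 52 genes, 48 had a probe, and 47 were detected on at least 2 of the 8 arrays and could be tested, out of 12162 genes tested in all. ATR, BRCA2, FANCA and FANCD2 had no probe under these symbols, and the 1 probe of RAD50 was detected on 0 arrays.

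Expression was measured on Illumina bead arrays in DAOY, an established human medulloblastoma line derived from a tumour of the cerebellum. All 8 samples share that background. The genotypes are 5 stable lines with the plasmid pHM6-MXD3, numbered 1 to 5, 2 stable lines with the empty vector pHM6, numbered 1 and 2, and 1 sample of the parental line with no plasmid. The antibiotic G418, at 800 µg/ml, was used to select and maintain the 7 stable lines, and no such treatment is named for the parental cells, so carrying a plasmid under selection and not carrying one cannot be told apart from any other difference between those cultures. The labels do not say whether a numbered line is a clone, so the p-values below describe the scatter among these cultures. Because each array reads a bulk culture, fewer cells with a transcript and less of it per cell cannot be told apart.

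MXD3 belongs to a family of transcription factors that pair with MAX, bind the E-box CACGTG and repress genes that MYC activates. DNA repair works in dedicated pathways. ATM and ATR are kinases that sense breaks and stalled replication forks and signal through CHEK2 and CHEK1 to hold the cell cycle. Double-strand breaks are rejoined by the Ku proteins, XRCC4 and LIG4, or copied from the sister chromatid by the recombination enzymes around BRCA1, while damage to 1 strand is cut out and refilled by the excision pathways. Many repair genes are transcribed under E2F factors as cells enter S phase. Which of these pathways DAOY cells use was not measured here.

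The stretches upstream of 4 of these genes are shown because they hold, or lack, the E-box that MXD family proteins bind and the E2F motif of S phase genes. Each is the 250 bases before a RefSeq transcription start in GRCh38.p14, written 5′ to 3′ on the gene's own strand. Every CACGTG and every E2F word (TTTCCCGC, TTTCGCGC, TTTGCCGC or TTTGGCGC, on either strand) is in capitals. APEX1 lies on the plus strand at chr14:20454976-20455225, LIG3 on the plus strand at chr17:34980262-34980511, FANCC on the minus strand at chr9:95317710-95317959 and XRCC2 on the minus strand at chr7:152676142-152676391. None of these 4 windows overlaps another annotated gene.
APEX1: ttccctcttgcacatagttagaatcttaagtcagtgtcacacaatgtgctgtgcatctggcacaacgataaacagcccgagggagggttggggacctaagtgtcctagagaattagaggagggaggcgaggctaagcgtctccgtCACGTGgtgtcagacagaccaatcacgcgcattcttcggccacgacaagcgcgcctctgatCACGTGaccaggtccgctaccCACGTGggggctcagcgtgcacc
LIG3: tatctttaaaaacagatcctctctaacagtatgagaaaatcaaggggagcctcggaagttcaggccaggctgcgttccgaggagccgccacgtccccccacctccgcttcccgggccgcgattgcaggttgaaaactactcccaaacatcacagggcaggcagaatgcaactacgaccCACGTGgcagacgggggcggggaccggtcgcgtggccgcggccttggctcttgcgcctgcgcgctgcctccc
FANCC: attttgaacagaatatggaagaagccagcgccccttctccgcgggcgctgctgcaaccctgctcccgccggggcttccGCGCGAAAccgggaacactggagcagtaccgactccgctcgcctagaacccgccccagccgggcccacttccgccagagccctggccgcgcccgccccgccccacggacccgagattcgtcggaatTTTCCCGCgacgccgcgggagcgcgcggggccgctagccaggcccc
XRCC2: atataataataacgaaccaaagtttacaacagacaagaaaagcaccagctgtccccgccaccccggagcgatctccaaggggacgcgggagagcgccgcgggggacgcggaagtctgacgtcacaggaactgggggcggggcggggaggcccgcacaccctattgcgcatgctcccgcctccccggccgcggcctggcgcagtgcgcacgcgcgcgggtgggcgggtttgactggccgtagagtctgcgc

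The APEX1 window holds the E-box 3 times and the LIG3 window holds it 1 time. The FANCC window carries TTTCCCGC on its own strand and TTTCGCGC on the other, and neither motif is spelled in the XRCC2 window. Another FANCC start is listed, and the window before it holds neither motif. RefSeq promoters were found for 47 of the 52 listed genes, a set that shares 42 genes with the 47 tested. Counting a gene if any of its listed starts had the motif, CACGTG occurred in 4 of the 47 (APEX1, BRCA2, LIG3 and UNG), or 8.51%, against 7.73% of 27305 genes. E2F words occurred in 4 of the 47 (FANCA, FANCC, MSH3 and UNG), or 8.51%, against 3.4% of the same genes. Over the genes measured on the arrays the shares stood differently: CACGTG occurred in 3 of 42 repair genes (7.14%) against 11.1% of 10058 tested genes, and E2F words in 3 of 42 (7.14%) against 5.51%. None of the windows printed here holds both motifs. A match is a spelling and not a measured binding site, and the arrays carry no measure of binding.

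The plasmid's own gene was read by 1 probe. MXD3 gave log2 intensities of 7.47, 7.22, 6.98, 8.08 and 6.18 in MXD3 lines 1 to 5, 6.93 and 6.71 in vector lines 1 and 2, and 6.59 in parental DAOY. All 3 controls were exceeded by lines 1 to 4 and not reached by the array labelled MXD3 line 5. Line 3, at 6.98, lay only just above vector line 1, at 6.93. Between the 5 MXD3 lines and the 3 controls the MXD3 probe differed by 0.44 ± 0.35 (SE). In limma the unadjusted p was 0.236 and the adjusted p was 0.647, so a higher MXD3 signal in the MXD3 lines as a group was not established. The sources used here do not give this probe's place relative to the plasmid's insert, so the lines are named as labelled, and the main results are also given without line 5. Between 60.5% and 64.0% of the 22184 probes were detected per array, at a detection p-value below 0.05. Of 12 neural precursor markers 5 were detected on all 8 arrays (SOX2, PAX6, ZIC2, GLI2 and OTX2) and 4 on none (NES, ZIC1, ATOH1 and GLI1). Detected on all 8 were 5 of 10 neuronal markers, 2 of 7 glial markers (OLIG1 and OLIG2), 2 of 7 epithelial markers (KRT8 and KRT18) and 1 of 8 blood and endothelial markers (CD68), and the part of other cell types in the repair gene values was not tested.

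The first question is whether repair transcripts differed between the 5 MXD3 lines and the 3 controls, the 2 vector lines and the parental cells together. No difference passed the test: of the 47 genes, 24 had a higher and 23 a lower mean in the MXD3 lines, and 0 reached an adjusted p under 0.05 in limma. Across all 12162 genes 50.5% had a higher mean and 0% passed. The median log2 difference was 0.0037 for the repair genes and 0.0037 for all genes, and it was -0.0061 for the repair genes without line 5. The differences ran from -0.66 for XRCC2, a recombination gene, to 0.25 for CLSPN, the claspin gene, leaving aside ATM, whose probe was below detection in every control. ATM is among the 24 higher genes and met the detection filter only through MXD3 lines 1 and 4. Without adjustment, 2 of the 47 (XRCC2 and PMS1, both lower) had p under 0.05, or 4.26%, against 11.7% of all genes, 5.57% counting lower genes alone. In 0 of the 47 did the MXD3 lines and the controls not overlap, against 7.98% of all genes.

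**Figure D1:**
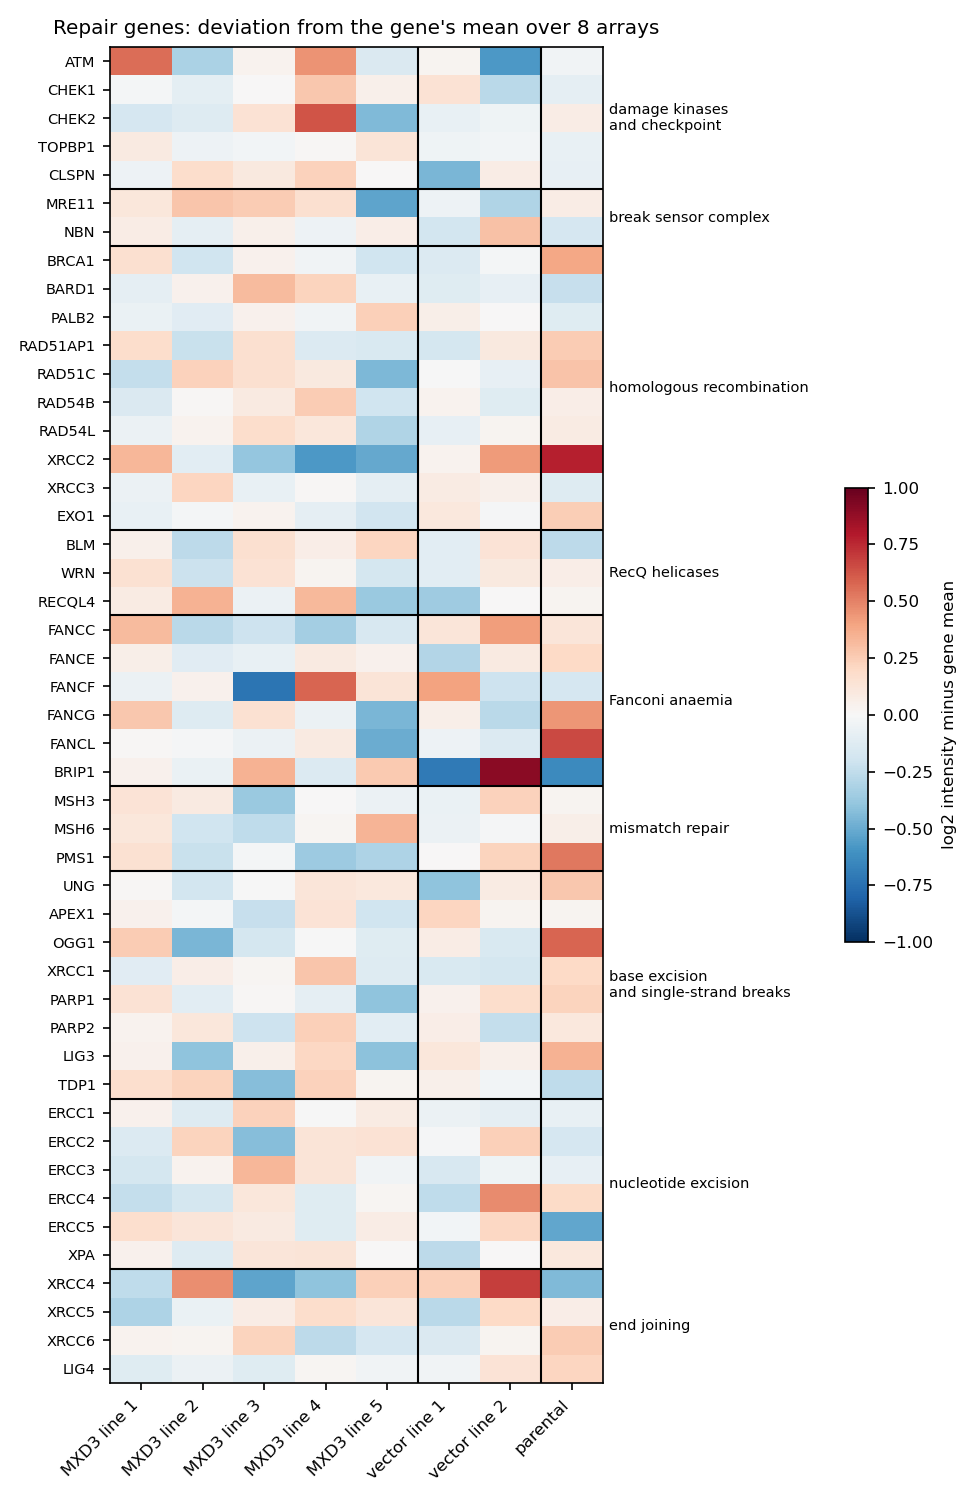
Log2 intensity of each of the 47 tested repair genes minus that gene's mean over the 8 arrays (colour, from -1 to 1), with genes in rows by pathway and arrays in columns; black lines part the pathways and the MXD3, vector and parental arrays. No row has all 5 MXD3 lines on one side of all 3 controls. The parental column holds the highest value of 15 genes and the lowest of 6.

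**Figure D2:**
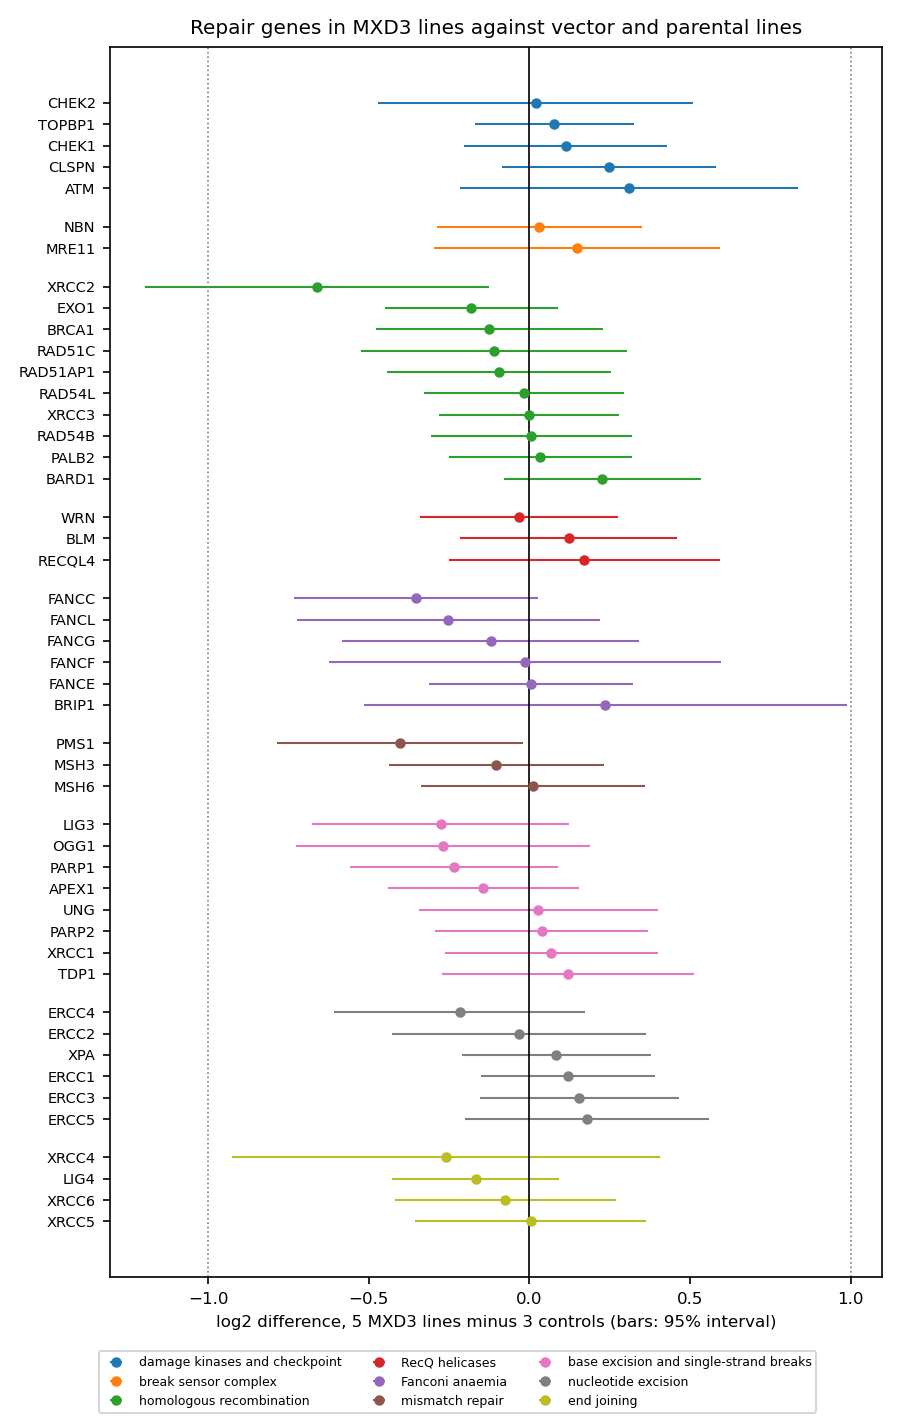
Log2 difference between the means of the 5 MXD3 lines and the 3 controls for each repair gene (points), with its 95% interval (bars), coloured by pathway; dotted lines mark a 2-fold difference. The intervals of XRCC2 and PMS1 leave out 0, and only that of XRCC2 reaches past a 2-fold difference.

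Signalling kinases and checkpoint mediators pass the damage signal on. All 5 tested members had a slightly higher mean in the MXD3 lines, against 50.5% of all genes. The median difference was 0.11, and none passed. ATM met the detection filter only through MXD3 lines 1 and 4, so its direction adds nothing to this count. The direction of CHEK2 changed in 4 of 15 alternatives. CHEK1, the kinase that restrains the cycle when replication stalls, read 11.44, 11.36, 11.46, 11.73 and 11.50 in MXD3 lines 1 to 5, 11.60 and 11.18 in vector lines 1 and 2, and 11.37 in parental DAOY. The 2 vector lines enclosed 4 of the 5 MXD3 values, and the difference of 0.11 ± 0.14 (SE) had an adjusted p of 0.777. CHEK2, the kinase activated by ATM, read 6.08, 6.11, 6.38, 6.87 and 5.80 in the MXD3 lines, 6.17 and 6.20 in vector lines 1 and 2, and 6.32 in parental DAOY. Its MXD3 lines spanned a range of 1.07, wider than the controls on both sides, around a difference of 0.02 ± 0.22 (SE), which turned to -0.0018 with median scaling.

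CLSPN encodes claspin, the adaptor that brings CHEK1 to ATR. It read 8.33, 8.55, 8.47, 8.61 and 8.38 in MXD3 lines 1 to 5, 7.92 and 8.45 in vector lines 1 and 2, and 8.30 in parental DAOY. The low value of vector line 1 set the difference of 0.25 ± 0.15 (SE, adjusted p = 0.536), which was 0.10 without that line. TOPBP1, the activator of ATR, stayed between 12.33 and 12.53 on all 8 arrays. ATM was at the limit of detection: it was detected only in MXD3 lines 1 and 4, at 5.99 and 5.89, and read 5.12, 5.47 and 5.29 in lines 2, 3 and 5, 5.46 and 4.86 in vector lines 1 and 2, and 5.40 in parental DAOY. The means were 5.55 ± 0.38 (SD, n = 5) and 5.24 ± 0.33 (SD, n = 3), the adjusted p was 0.629, and no fold is given because the controls were not above background.

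MRE11 and NBN belong with RAD50 to the complex that binds broken ends. NBN differed by 0.03 ± 0.14 (SE). MRE11 ranged from 9.29 in line 5 to 10.09 in line 2, with the controls between 9.52 and 9.89. Its brightest probe gave a difference of 0.15, while another probe detected on all 8 arrays gave -0.20. On that other probe parental DAOY read 9.22, and the highest stable line, MXD3 line 4, read 8.62. Against the vector lines alone the 2 probes gave 0.23 and 0.16, the same sign. A dimmer kept probe, detected only in MXD3 lines 1 and 3, gave 0.50 against the 3 controls.

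In homologous recombination, 3 of the 10 tested genes had a higher and 7 a lower mean in the MXD3 lines, with a median of -0.06. XRCC2, a recombination factor, had the lowest p of the repair genes. It read 6.52, 6.09, 5.80, 5.61 and 5.68 in MXD3 lines 1 to 5, 6.22 and 6.61 in vector lines 1 and 2, and 6.97 in parental DAOY. Lines 2 to 5 lay below every control and line 1 lay among them, and line 4 was below detection. The means were 5.94 ± 0.37 (SD, n = 5) and 6.60 ± 0.37 (SD, n = 3). This is a difference of -0.66 ± 0.24 (SE), or 0.633 times the control level, with a 95% interval from -1.20 to -0.12. The unadjusted p was 0.0209 and the adjusted p was 0.353 in limma, so the gene was not called. The size moved with the background correction: it was -0.24 without one and -0.85 in the authors' background-subtracted table.

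BRCA1, the ubiquitin ligase that directs breaks into recombination, read 10.70, 10.34, 10.58, 10.50 and 10.34 in MXD3 lines 1 to 5, 10.40 and 10.52 in vector lines 1 and 2, and 10.93 in parental DAOY. The parental array was the highest, and the difference of -0.12 ± 0.16 (SE, adjusted p = 0.783) turned to 0.03 without it. BARD1, its partner, read 8.28, 8.41, 8.69, 8.59 and 8.30 in the MXD3 lines, 8.25 and 8.29 in vector lines 1 and 2, and 8.14 in parental DAOY. Lines 2 to 5 lay above every control and line 1 lay among them, with a difference of 0.23 ± 0.14 (SE) and an adjusted p of 0.537. The partners thus had means that differed from the controls in opposite directions, both within the scatter.

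EXO1, the nuclease that resects ends, read 11.82, 11.88, 11.94, 11.81 and 11.71 in MXD3 lines 1 to 5, 12.00 and 11.89 in vector lines 1 and 2, and 12.14 in parental DAOY. Its difference was -0.18 ± 0.12 (SE, adjusted p = 0.576), and only line 3 lay above the lowest control. A dimmer probe of the same gene, detected on 5 of the 8 arrays, gave -0.58. RAD51C, a further recombination factor, differed by -0.11 and -0.07 on its 2 kept probes. RAD51AP1, an accessory factor, differed by -0.09, the DNA translocases RAD54B and RAD54L by 0.0064 and -0.02, the BRCA1 to BRCA2 bridge PALB2 by 0.03 and the recombination factor XRCC3 by -0.00089. The 3 RecQ helicases, which unwind recombination and replication intermediates, differed by 0.12 for BLM, -0.03 for WRN and 0.17 for RECQL4, all with adjusted p of 0.749 or more.

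**Figure D3:**
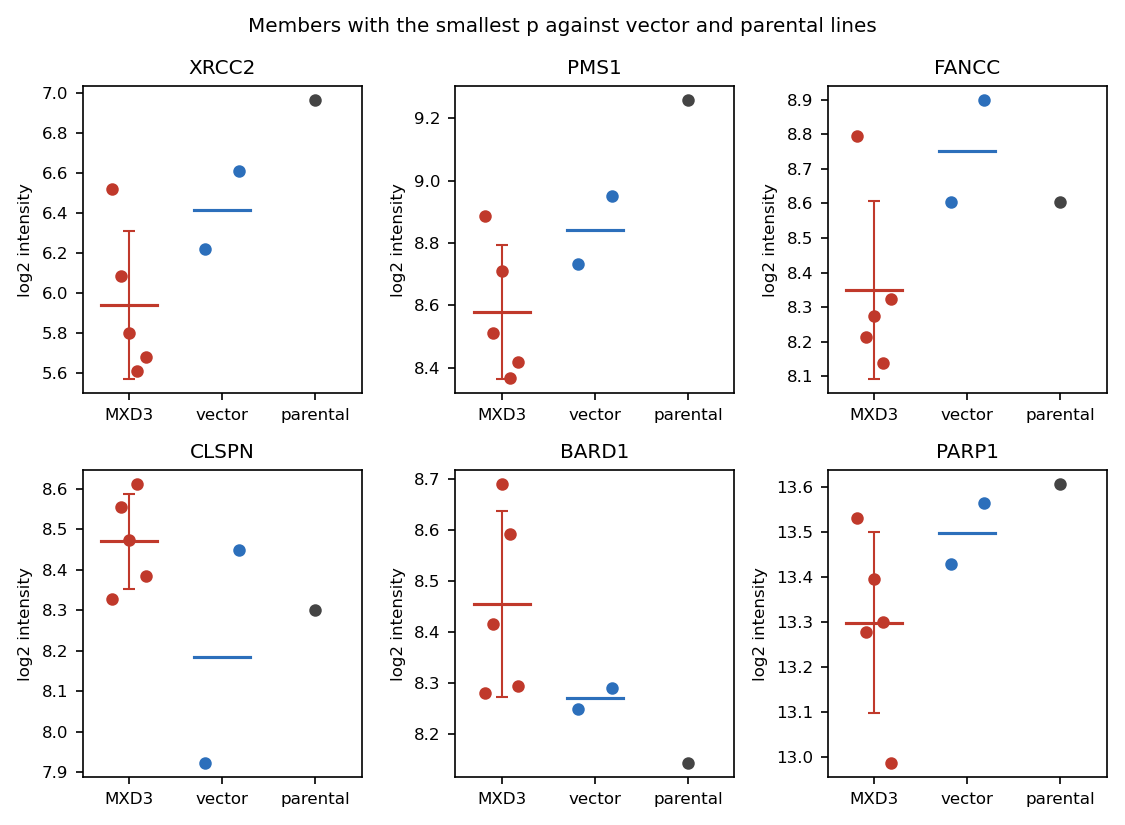
Log2 intensity of XRCC2, PMS1, FANCC, CLSPN, BARD1 and PARP1 on each array (points; MXD3 lines in order 1 to 5 and vector lines in order 1 and 2 from left to right), with the group mean (horizontal line) and the SD of the 5 MXD3 lines (bar). In XRCC2, PMS1, FANCC and PARP1 the leftmost MXD3 point, line 1, sits among the controls and the other 4 lie below them.

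The Fanconi anaemia genes act on DNA cross-links. Of 6 tested, 2 had a higher and 4 a lower mean. FANCC, a subunit of the core complex, read 8.80, 8.22, 8.28, 8.14 and 8.32 in MXD3 lines 1 to 5, 8.60 and 8.90 in vector lines 1 and 2, and 8.60 in parental DAOY. Lines 2 to 5 lay below every control and line 1 lay among them. The difference was -0.35 ± 0.17 (SE), or 0.783 times the controls, with a 95% interval from -0.73 to 0.03, an unadjusted p of 0.0657 and an adjusted p of 0.458. Other subunits of the core complex differed by 0.0037 for FANCE, -0.01 for FANCF and -0.12 for FANCG. FANCL, its ubiquitin ligase, is described with the parental cells. BRIP1, a helicase that binds BRCA1, was detected on 4 of the 8 arrays and ran from 4.99 in vector line 1 to 6.60 in vector line 2, so that the vector lines alone spanned more than all the other arrays.

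PMS1 encodes a MutL homologue of the mismatch repair family. It read 8.89, 8.51, 8.71, 8.37 and 8.42 in MXD3 lines 1 to 5, 8.73 and 8.95 in vector lines 1 and 2, and 9.26 in parental DAOY. Lines 2 to 5 again lay below every control, and line 1 lay among them. Its means of 8.58 ± 0.22 (SD, n = 5) and 8.98 ± 0.26 (SD, n = 3) gave a difference of -0.40 ± 0.17 (SE), or 0.756 times the controls, with a 95% interval from -0.78 to -0.02. In limma the unadjusted p was 0.0406 and the adjusted p was 0.403. MSH3 and MSH6, which recognise mismatches, differed by -0.10 and 0.01.

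Line 1 thus lay among the controls in XRCC2, FANCC and PMS1, and in PARP1 as well. Leaving it out widened the differences to -0.81 for XRCC2, -0.46 for FANCC and -0.48 for PMS1, with adjusted p of 0.179, 0.212 and 0.263. These genes were picked by small p and line 1 for lying among their controls. The differences therefore had to widen, and this adds no support for them. Leaving out the array labelled MXD3 line 5 gave -0.59, -0.35 and -0.36, with adjusted p of 0.447, 0.529 and 0.502. Without the parental array 0 repair genes had an unadjusted p under 0.05, and XRCC2 and PMS1 differed by -0.48 and -0.26.

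Base excision and single-strand break repair gave 4 genes with a higher and 4 with a lower mean. PARP1, which marks strand breaks with poly(ADP-ribose), read 13.53, 13.28, 13.40, 13.30 and 12.99 in MXD3 lines 1 to 5, 13.43 and 13.56 in vector lines 1 and 2, and 13.61 in parental DAOY. Lines 2 to 5 lay below the controls, and the difference was -0.24 ± 0.14 (SE, adjusted p = 0.542). LIG3, the ligase that seals such breaks, read 9.59, 9.14, 9.60, 9.75 and 9.13 in the MXD3 lines, 9.66 and 9.60 in vector lines 1 and 2, and 9.90 in parental DAOY. Lines 2 and 5 were low and line 4 was among the controls, with a difference of -0.28 ± 0.18 (SE, adjusted p = 0.565) that was -0.0011 on another probe detected on all 8 arrays.

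Among the other genes of these pathways, XRCC1, the scaffold for LIG3, differed by 0.07, and PARP2, which shares the work of PARP1, by 0.04. The uracil glycosylase UNG differed by 0.03 on its brightest probe, -0.45 on the next brightest and 0.05 on the dimmest, so its probes disagreed. The abasic site endonuclease APEX1 differed by -0.14, and TDP1, which frees trapped topoisomerase, by 0.12. OGG1, which removes oxidised guanine, differed by -0.27 and is described with the parental cells. Of the 3 tested genes with an E-box upstream, LIG3 and APEX1 had a lower and UNG a higher mean, with a median of -0.14. Over the 1117 tested genes with an E-box the median was -0.02 and 46.7% had a higher mean, against 50.9% of the 8941 tested genes without one.

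Nucleotide excision repair, which removes bulky lesions such as ultraviolet photoproducts, gave 4 genes with a higher and 2 with a lower mean. XPA, which verifies the lesion, differed by 0.08, and ERCC3 and ERCC2, the helicases of TFIIH, by 0.16 and -0.03. The nucleases that cut on either side of the lesion differed by 0.18 for ERCC5, -0.22 for ERCC4 and 0.12 for ERCC1. ERCC1 had 3 kept probes, which gave 0.12, 0.17 and -0.08.

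End joining gave 1 gene with a higher and 3 with a lower mean. XRCC5, the larger Ku subunit, read 12.66, 12.90, 13.04, 13.14 and 13.09 in MXD3 lines 1 to 5, 12.69 and 13.16 in vector lines 1 and 2, and 13.03 in parental DAOY. The vector lines spanned nearly the whole range, and the difference of 0.0037 ± 0.16 (SE) turned to -0.0022 with median scaling and to -0.0016 in the authors' background-subtracted table. XRCC6, the other Ku subunit, differed by -0.08, and LIG4, the ligase of this pathway, by -0.17, with its 5 MXD3 values within 0.14 of one another. XRCC4, the partner of LIG4, was detected on 4 of the 8 arrays and is described with the vector lines.

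The size of the differences is shown against all genes in the plot of difference sizes. The median absolute log2 difference was 0.12 for the 47 repair genes and 0.171 for all genes. The 95% interval lay within a 2-fold difference either way for 46 of the 47 (97.9%), XRCC2 being the exception, and for 87.4% of all genes. To set dim genes aside, the same was taken over genes detected on all 8 arrays, 42 of the repair genes and 9901 in all. There the median absolute difference was 0.117 against 0.163, and 1 of the 42 (2.38%) had an unadjusted p under 0.05 against 11.6%. The SD among the 5 MXD3 lines had a median of 0.188 for the repair genes and 0.237 for all genes, and in the genes detected on all 8 arrays 0.183 and 0.216. FANCF had the widest SD of the repair genes, 0.47, and LIG4 the narrowest, 0.06. These figures describe the list, which was not tested against other lists.

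**Figure D4:**
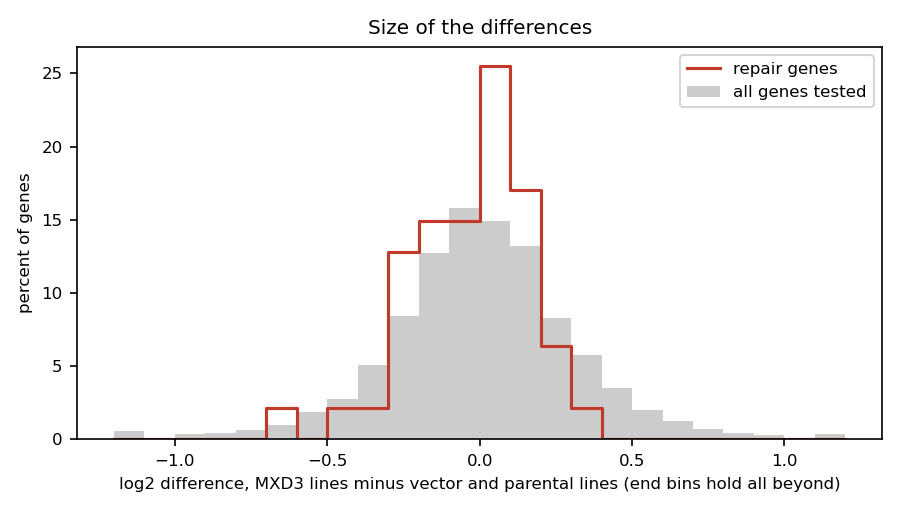
Percent of genes (vertical axis) in each step of 0.1 in the log2 difference between the MXD3 lines and the 3 controls, for all 12162 genes (grey bars) and the 47 repair genes (red line); the end bars hold everything beyond them. The repair genes lie between -0.7 and 0.4, inside the spread of all genes; the rightmost step filled by a repair gene holds ATM, which was below detection in all 3 controls.

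The vector lines differ from the MXD3 lines, per the labels, by the gene in the plasmid alone, so the next comparison asks which repair genes differed between lines that all carry a plasmid under G418. No difference passed the test: 0 of 47 passed the adjusted threshold, as 0% of all genes, and 0 had an unadjusted p under 0.05, against 7.75% of all genes. A higher mean was found for 25 of the 47, ATM again among them, and for 50.6% of all genes, with a median of 0.02. With only 2 vector lines, FANCC came nearest, at -0.40 ± 0.20 (SE, unadjusted p = 0.0787, adjusted p = 0.672). XRCC2 differed by -0.48 ± 0.26, PMS1 by -0.26 ± 0.18 and CLSPN by 0.28 ± 0.18 (SE), with adjusted p from 0.692 to 0.743. These values turned on which vector line was used: without vector line 1 they were -0.67 for XRCC2, -0.37 for PMS1 and 0.02 for CLSPN, and without vector line 2 they were -0.28, -0.16 and 0.55. FANCC was -0.55 and -0.26 in the same fits. The count of repair genes with an unadjusted p under 0.05 was 2 without either vector line or without MXD3 line 1, and 1 without MXD3 line 2 or 5.

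XRCC4 had the largest difference in this comparison, -0.56 ± 0.29 (SE, adjusted p = 0.678), which was -0.79 without vector line 1 and -0.34 without vector line 2. It read 5.54, 6.26, 5.27, 5.39 and 6.03 in MXD3 lines 1 to 5, 6.03 and 6.49 in vector lines 1 and 2, and 5.35 in parental DAOY. It was detected in lines 2 and 5 and in both vector lines, and not in lines 1, 3 and 4 or in the parental cells. The groups did not overlap for 1 of the 47 genes (2.13%), against 13.2% of all genes, 6.59% counting higher genes alone. This gene was XRCC1, at 10.32, 10.50, 10.46, 10.71 and 10.31 in MXD3 lines 1 to 5 and 10.28 and 10.26 in the vector lines. The lowest MXD3 value was thus just above the higher vector line, the difference was 0.19 ± 0.15 (SE, adjusted p = 0.782), and the parental cells, at 10.64, lay among the MXD3 lines.

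The last comparisons set the stable lines against the parental cells, of which there was 1 array, assumed in the fit to vary like the others. Both use that array, so a value peculiar to it enters both. Of the 47 repair genes, 29 had a lower mean in the MXD3 lines than in the parental cells and 30 in the vector lines, against 49.9% and 50.2% of all genes. The same counts were 48 and 50 of the 78 other repair genes and 25 and 27 of the 39 replication genes described further on, and these counts were not tested. The medians of the 47 were -0.07 and -0.11. None of the 47 passed the adjusted threshold in either comparison, and of all genes 0.00822% passed in each. Unadjusted, 5 of 47 (10.6%) had p under 0.05 between MXD3 lines and parental cells, 4 of them lower, against 12.9% of all genes and 5.47% counting lower genes alone. Between vector lines and parental cells it was 2 of 47 (4.26%), against 7.1%.

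FANCL, the ubiquitin ligase subunit that modifies FANCD2, was high in the parental cells. It read 10.37, 10.35, 10.30, 10.45 and 9.86 in MXD3 lines 1 to 5, 10.31 and 10.23 in vector lines 1 and 2, and 11.02 in parental DAOY. All 7 stable lines lay below the parental array. The difference was -0.76 ± 0.24 (SE, unadjusted p = 0.0120, adjusted p = 0.250) for the MXD3 lines and -0.76 ± 0.27 (SE, unadjusted p = 0.0206, adjusted p = 0.593) for the vector lines. The 2 kinds of stable line differed from each other by -0.0014 ± 0.18 (SE).

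ERCC5, the nuclease that cuts 3′ of a lesion, was low in the parental cells. It read 10.58, 10.53, 10.50, 10.29 and 10.49 in MXD3 lines 1 to 5, 10.38 and 10.61 in vector lines 1 and 2, and 9.89 in parental DAOY. All 7 stable lines lay above the parental array, by 0.58 ± 0.19 (SE, adjusted p = 0.270) in the MXD3 lines and by 0.61 ± 0.21 (SE, adjusted p = 0.592) in the vector lines. FANCL and ERCC5 thus separated the parental array from the stable lines with and without MXD3 by nearly equal amounts.

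OGG1 read 7.00, 6.29, 6.57, 6.74 and 6.62 in MXD3 lines 1 to 5, 6.82 and 6.59 in vector lines 1 and 2, and 7.33 in parental DAOY. Every stable line was lower, with a difference of -0.68 ± 0.26 (SE, unadjusted p = 0.0283, adjusted p = 0.325) in the MXD3 lines and -0.62 ± 0.29 (SE, adjusted p = 0.723) in the vector lines. XRCC2 and PMS1 were the remaining genes with unadjusted p under 0.05 between MXD3 lines and parental cells, at -1.03 ± 0.34 and -0.68 ± 0.23 (SE, adjusted p = 0.277 and 0.293). Their vector lines stood in between, at -0.55 ± 0.38 and -0.42 ± 0.26 (SE) from the parental cells. BRCA1, highest in the parental cells, differed by -0.44 ± 0.20 in the MXD3 lines and -0.47 ± 0.22 in the vector lines (SE, adjusted p = 0.403 and 0.733). FANCG, another subunit of the Fanconi core complex, lay between 9.67 and 10.39 in the 7 stable lines and at 10.57 in the parental cells, with differences of -0.49 for the MXD3 lines and -0.55 for the vector lines (adjusted p = 0.505 and 0.783). On its brightest probe UNG lay between 12.34 and 12.87 in the stable lines and at 13.02 in the parental cells. The differences were -0.26 and -0.43 (adjusted p = 0.660 and 0.791). Another UNG probe, detected on all 8 arrays, read 6.69 in the parental cells, below MXD3 lines 4 and 5, at 6.70 and 6.84. On the remaining UNG probe the parental array was the highest, at 7.74.

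**Figure D5:**
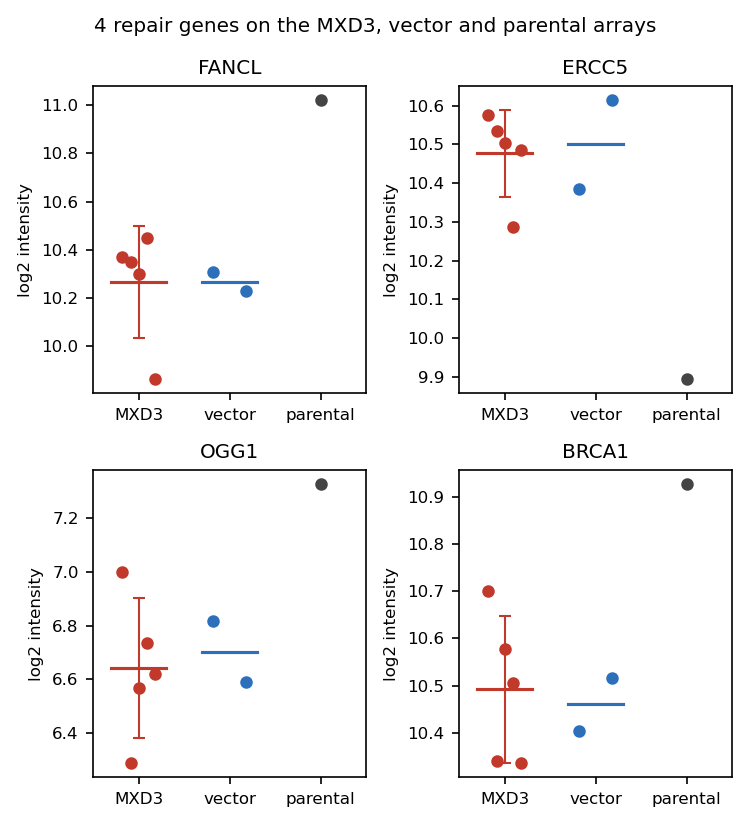
Log2 intensity of FANCL, ERCC5, OGG1 and BRCA1 on each array (points), with the mean of the MXD3 and of the vector lines (horizontal lines) and the SD of the 5 MXD3 lines (bar). The single parental array lies above all 7 stable lines in FANCL, OGG1 and BRCA1 and below them in ERCC5.

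XRCC4 and BRIP1 were below detection in the parental cells. XRCC4 was detected in both vector lines, and their mean lay 1.53-fold above the lowest detected signal of the parental array. The log2 difference from the parental cells was 0.91 (adjusted p = 0.724). It ran from 0.31 to 1.57 over the alternatives, so the fold is not a lower limit. In the MXD3 lines XRCC4 was detected in 2 of 5, and line 3 read below the parental array, so no fold is given (adjusted p = 0.742). BRIP1 was detected in 3 of 5 MXD3 lines and 1 of 2 vector lines, with vector line 1 below the parental array, and no fold is given for it either (adjusted p = 0.569 and 0.852). The parental array lay outside the MXD3 lines for 25 of the 47 genes (53.2%), against 46% of all genes, with the MXD3 lines lower in 16, against 22.8% of all genes for that direction. It lay outside the vector lines for 34 (72.3%), against 68.9%, with the vector lines lower in 24, against 34.5%. Over all 8 arrays it held the highest value of 15 of the 47 genes (31.9%), against 16.7% of all genes. It held the lowest value of 6 of the 47 (12.8%), against 17.3% of all genes.

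Per array, the median over the 47 genes of the deviation from each gene's mean in MXD3 lines 1 to 5 was 0.04, -0.07, 0.04, 0.07 and -0.09, -0.05 and 0.03 in vector lines 1 and 2, and 0.07 in parental DAOY. The array labelled MXD3 line 5 had the lowest and the parental array the highest of these medians, with MXD3 line 4 next to the parental array, so the groups overlapped. The array labelled MXD3 line 5 held the lowest value of 12 of the 47 genes (25.5%), against 16.4% of all genes.

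Other genes of the pathway and of its usual partners were looked at from further lists. Of 90 other damage signalling and repair genes, 78 were tested against the 3 controls, of which 38 had a higher and 40 a lower mean, 0 passed and 7 (8.97%) had an unadjusted p under 0.05, against 11.7% of all genes. The groups did not overlap for 6 (7.69%), against 7.98% of all genes. ERCC6, the transcription-coupled repair factor, differed by 0.69 ± 0.19 and the repair polymerase POLB by 0.39 ± 0.15 (SE, adjusted p = 0.288 and 0.362), with all 5 MXD3 lines above all 3 controls in both. ATRIP, the partner of ATR, differed by -0.41 ± 0.13 (SE, adjusted p = 0.316), with all 5 MXD3 lines below the controls. RAD9A of the checkpoint clamp differed by 0.39 ± 0.15, and the TFIIH subunits GTF2H2 and GTF2H3 by -0.86 ± 0.27 and -0.48 ± 0.17 (SE), with overlapping groups and adjusted p from 0.308 to 0.357.

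Of 40 DNA replication and S phase genes 39 were tested, with 22 higher, 17 lower, a median of 0.04, 0 passed and 3 (PRIM2, CCNE2 and CHAF1B) with an unadjusted p under 0.05, or 7.69% against 11.7% of all genes. PRIM2, a primase subunit, differed by 0.43 ± 0.16 and CCNE2, a cyclin of S phase entry, by 0.66 ± 0.24 (SE, adjusted p = 0.355 and 0.357). In the other direction, GINS1 of the replicative helicase differed by -0.44 ± 0.20, the clamp loader subunit RFC3 by -0.27 ± 0.13 and the helicase subunit MCM7 by -0.24 ± 0.13 (SE, adjusted p = 0.431, 0.462 and 0.493), with all 5 MXD3 lines below all 3 controls in MCM7. The groups did not overlap for 2 of the 39 (5.13%, 1 higher and 1 lower), against 7.98% of all genes. The per-array medians of this list were -0.08, 0.09, 0.08, 0.08 and -0.06 in MXD3 lines 1 to 5, -0.05 and -0.06 in vector lines 1 and 2, and 0.07 in parental DAOY, and their part in the repair gene values was not tested. Of 23 p53 target genes 20 were tested, with 9 higher, 11 lower, 0 passed and 3 with an unadjusted p under 0.05, or 15% against 11.7% of all genes. TP53INP1, a p53-induced nuclear protein, differed by 1.14 ± 0.33, CDKN1A, the cell cycle inhibitor p21, by 0.78 ± 0.29 and GADD45A, a damage-induced gene, by 0.45 ± 0.19 (SE, adjusted p = 0.291, 0.357 and 0.396). Of the lower ones, TP53I3, a p53-induced oxidoreductase, differed by -0.65 ± 0.31, the phosphatase gene PPM1D by -0.24 ± 0.14 and GDF15, a secreted stress factor, by -0.71 ± 0.52 (SE, adjusted p = 0.456, 0.513 and 0.618), with overlapping groups. TP53INP1 read 7.94, 9.05, 7.94, 8.41 and 8.65 in MXD3 lines 1 to 5, 7.84 and 7.38 in vector lines 1 and 2, and 6.54 in parental DAOY, so all 5 MXD3 lines lay above all 3 controls. It was the only 1 of the 20 whose groups did not overlap (5%), against 7.98% of all genes.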

How the data were processed

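The authors' deposited non-normalized table gives a linear intensity for 22184 probes on each of 8 arrays and a deposited detection p-value with each. The submitters' processing notes name BeadStudio and no version of it. The authors' background-subtracted series matrix, also linear intensity, served as an alternative. Its values fell below 0 for 2996 to 3304 probes per array and had a mean of 1363 on each array and medians from 87.5 to 98.7. Within each array they were a straight line of the non-normalized values, with residuals up to 0.0121.

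With neqc, intensities were corrected for background, using the detection p-values, then quantile-normalized and log2-transformed (limma 3.58.1, R 4.3.3, offset 16). Probes detected at p under 0.05 on at least 2 arrays were kept, and the brightest probe stood for its gene (12162 genes). The platform annotation gave the symbols, which were compared with RefSeq GRCh38.p14 by Entrez ID. Of the probes 19715 named 1 gene, 0 named several and 2469 named none. The comparisons used lmFit and eBayes, with two-sided p-values adjusted over all 12162 genes (Benjamini-Hochberg): 5 MXD3 against 3 controls in a fit of 2 groups, and the others in a fit of 3 groups. Fits were tested on simulated data. The differences put in were larger than any of the repair genes against the 3 controls, so smaller ones were not covered.

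Mean intensity per array ran from 1346 to 1797, and 8 arrays limit the precision. In 28 pairs of arrays r across genes was 0.969 to 0.987, and the SD of the log2 difference was at least 0.395, and no array duplicated another. Named genes were ATM, CHEK1, CHEK2, BRCA1, PARP1 and XRCC5 whatever their values, the 8, 5, 4 and 4 with the smallest p in the 4 comparisons, and in the other lists up to 3 per direction. Further members carry their mean difference, and per-array values for XRCC1 were chosen after they were seen. The parental comparisons given for FANCG and UNG also fell outside this rule. The members and lists were chosen with earlier results of these data known. Alternatives were other background corrections, scalings, offsets, filters and probe rules, a replicate block and leaving out each array.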

Additional observations from a re-analysis of the deposited data

Results flagged for a closer look

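Among the 17 repair genes with per-array values named by rule, the 5 MXD3 lines were searched for a line far from the other 4, taken as a gap to its nearest neighbour above 0.71 of the group's range. Such a gap was found in 2 of the 17. The nominal rate, for normally distributed values, is about 1 of 20 groups. Many of these genes were picked by small p, so that rate need not hold for them. The share over all genes was not taken, so the count says nothing particular about repair genes. FANCC read 8.7952 in MXD3 line 1, with the nearest other line at 8.3232, a gap of 0.72 of the range. FANCL read 9.8608 in the array labelled MXD3 line 5, with the nearest other line at 10.298, a gap of 0.743 of the range. Both lay on opposite sides of their groups, and the cause was not tested.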

How the results depend on the processing

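No repair gene passed the adjusted threshold under any of the 16 alternatives, 8 of which leave out 1 array. Of 381 alternative values of named genes, 370 kept their direction and 11 did not. Those 11 belonged to XRCC5, CHEK2 and BRCA1 against the vector and parental lines: XRCC5 was -0.0016 in the series matrix and -0.0022 with median scaling, CHEK2 was -0.0018 with median scaling, and leaving out 1 array in turn gave -0.13 to 0.11 for XRCC5, -0.14 to 0.13 for CHEK2 and -0.23 to 0.031 for BRCA1, which was above 0 only without the parental array. The number of all genes called between MXD3 lines and parental cells was 1, and 2 in the series matrix, 3 without background correction and 7 among genes detected on all 8 arrays. Leaving out 1 array gave 0 to 1 genes called against the vector and parental lines, with the 1 arising without MXD3 line 1, and 0 to 1 between vector lines and parental cells, with 0 when either vector line was left out. Leaving out 1 array moved the number of repair genes with an unadjusted p under 0.05 from 2 to between 0 and 3 against the vector and parental lines, from 0 to between 0 and 2 against the vector lines, from 5 to between 5 and 6 between MXD3 lines and parental cells, and from 2 to between 1 and 4 between vector lines and parental cells. The median of the repair genes in MXD3 line 4 was 0.07, and -0.0143 with median scaling. Except for the construction of these alternatives (fewer genes or arrays), the cause was not tested.

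The numbers 1 and 2 are shared by MXD3 and vector lines. With them as a replicate block, 0 genes were called and the repair gene median was 0.0087, against 0.02 without the block. Same-numbered arrays correlated at r = -0.309 and -0.179 in their deviations from the group mean. The deviations of vector lines 1 and 2 from their own mean mirror each other, so this cannot decide whether the numbers pair samples. The 1 parental array and 2 vector lines limit the precision, and the 5 genes not detected on all 8 arrays (ATM, XRCC2, FANCF, BRIP1 and XRCC4) lie near background.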
